A study of Bos taurus with 4 samples.

Results

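The genes described here encode the enzymes that burn fatty acids in mitochondria, activate them for use, or shorten them in peroxisomes, together with the peroxins that build peroxisomes and the regulators of these pathways. They form a list of 45 genes, given by symbol. A probe carried the symbol of 43 of them, and 32 had a probe above background and were tested, out of 7879 genes tested among 15216 with a probe. The tested members comprise 14 genes of mitochondrial oxidation, 4 of acyl-CoA activation, 4 of peroxisomal oxidation, 8 peroxins and 2 regulators.

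Gene expression was measured in morulas and blastocysts of Holstein cattle (Bos taurus), recovered 7 days after the onset of oestrus from superovulated cows inseminated with sexed semen. High BHB embryos came from cows in negative energy balance whose blood beta-hydroxybutyrate (BHB) exceeded 0.9 mmol/l, and low BHB embryos from cows in which it was below 0.9 mmol/l. Amplified RNA of the groups was compared on 4 dual-colour Agilent arrays, each with 1 RNA per group, with high BHB in Cy5 on arrays 1 and 2 and in Cy3 on arrays 3 and 4. The labels call the arrays biological replicates but leave the number of cows behind each RNA unstated, so a p-value speaks only of how much the 4 arrays varied. Titles of arrays 3 and 4 call them dye swaps numbered 1 and 2, so that by title there could be 2 replicates in place of 4. A sample mixes morulas with blastocysts, and fewer cells of a type cannot be told apart from less RNA per cell.

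BHB is a ketone body made in the liver from the acetyl-CoA that fatty acid oxidation yields, and it accumulates in the blood of dairy cows that mobilise fat in early lactation. To enter oxidation, a fatty acid is first joined to coenzyme A by an acyl-CoA synthetase. Carnitine palmitoyltransferases then carry it into mitochondria, where repeated rounds of dehydrogenation, hydration, a further dehydrogenation and thiolytic cleavage release acetyl-CoA. Very long and branched chains are shortened in peroxisomes by a parallel set of enzymes, all imported from the cytosol by peroxins. Bovine oocytes and early embryos hold lipid droplets, and fatty acid oxidation is among their energy sources before and at the blastocyst stage.

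No member passed the test with the 4 arrays taken as replicates. Each gene is given as its log2 ratio in high BHB over low BHB embryos (mean ± SD, n = 4 arrays). The lowest adjusted p among the 32, each on its brightest probe, was 0.285 (PEX2, limma, Benjamini-Hochberg over all tested probes). With arrays of 1 title number averaged, which leaves 2 values per probe, 1531 of 16575 probes passed. PEX2 was then the 1 of 32 members that passed (adjusted p = 0.0389, limma). With the 4 arrays taken as replicates, 2 of 16575 probes passed an adjusted p of 0.05 (0.0121%). Neither has a gene name in the annotation used here. At an unadjusted p under 0.05 (limma) on the brightest probe, PPARD and SCP2 were higher in high BHB embryos and PEX2 was lower. Of the 11 dimmer tested probes of members, 2 were also under this limit, and both were lower. These are a probe of SCP2 (mean -1.12) and a probe of ACSL3 (mean -0.60), so the direction of SCP2 depends on the probe. The shares below take each gene on its brightest probe and leave the dimmer probes out. The 2 higher members are 6.25% of those tested, against 5.72% of all tested genes. The 1 lower member is 3.12%, against 11.6% of all tested genes. PPARD, SCP2 and HSD17B4 were above 0 on all 4 arrays (9.38% of members, against 10.3% of all tested genes). PEX2, PEX6 and ETFDH were below 0 on all 4 (9.38%, against 15.6%). The 2 shares on the higher side are near those of all tested genes. The 2 shares on the lower side are below them but rest on 1 and 3 genes, and these differences were not tested.

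**Figure D1:**
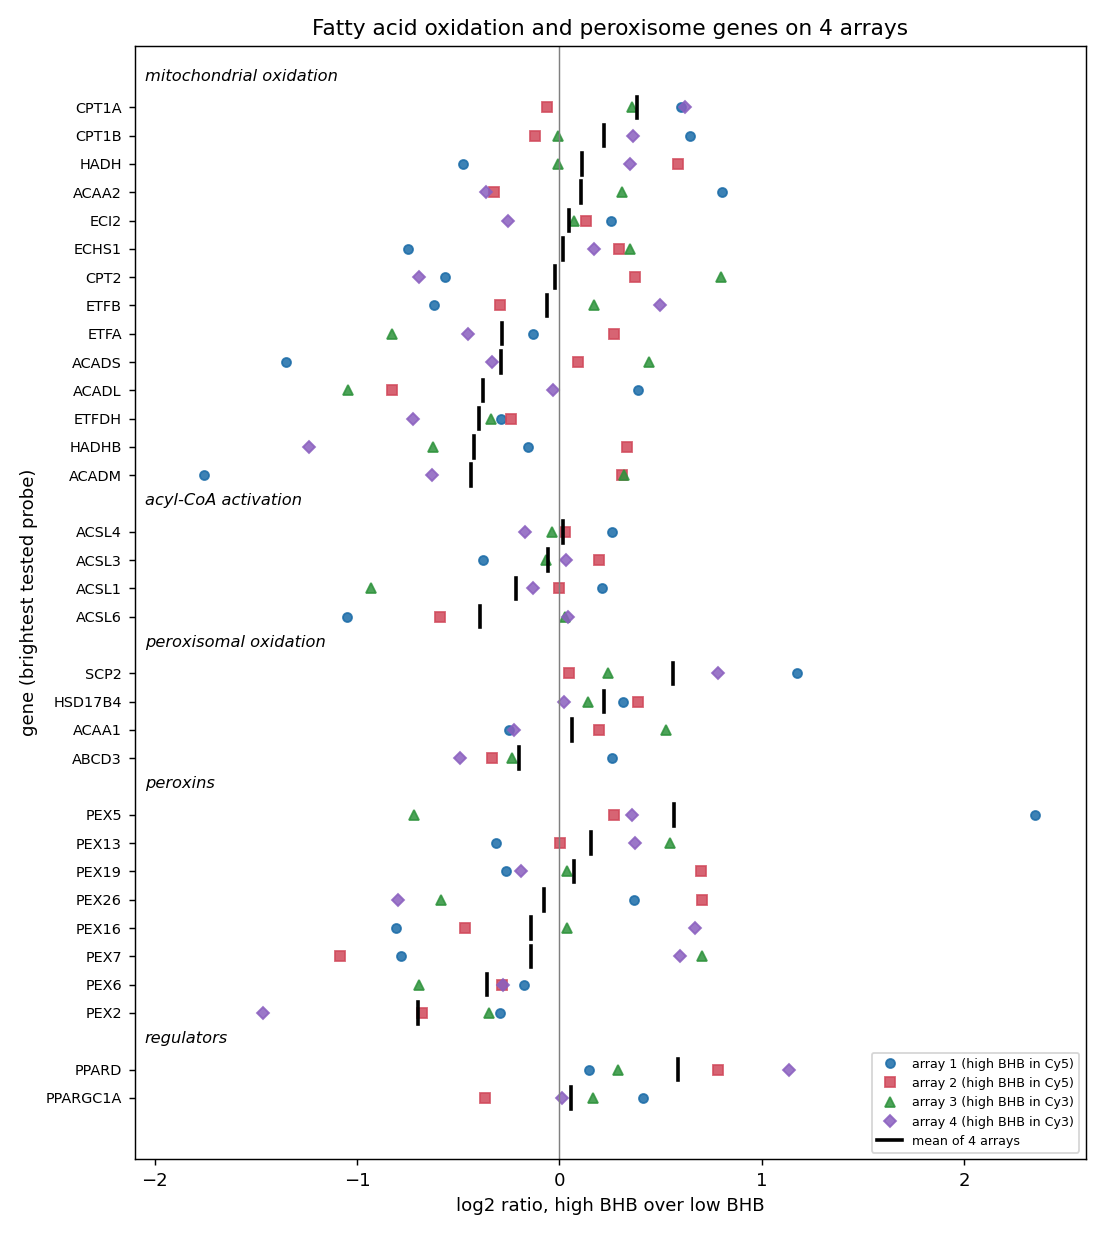
Log2 ratios of high over low BHB (horizontal axis) for the 32 tested members, by role, with 1 point per array and a bar at the mean of 4 arrays. Most members have points on each side of 0. The PEX5 point of array 1 at 2.35 and the ACADM point of array 1 at -1.75 lie farthest out.

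Apart from the 2 regulators, each role held genes on both sides of 0. Members had a median mean ratio of -0.04, the same as the median of all tested genes at -0.04, and 15 of 32 lay above 0 (46.9%, against 45.6% of all tested genes). Mitochondrial oxidation had a median of -0.04 with 6 genes above 0 and 8 below. Its array medians of -0.22, 0.11, 0.12 and -0.30 on arrays 1 to 4 differ in sign. The acyl-CoA synthetases had a median of -0.13 (1 above, 3 below), and their array medians stayed between -0.08 and 0.01. Peroxisomal oxidation had a median of 0.14 (3 above, 1 below), and the array medians were 0.29, 0.12, 0.19 and -0.10. That median turned to -0.02 when all tested probes of each gene were averaged, to -0.01 with no filter on dim probes, and to -0.02 with median centring, a scaling under which all tested genes had a median of -0.23. The peroxins had a median of -0.11 (3 above, 5 below) and array medians of -0.28, -0.14, -0.16 and 0.08. Without array 1 the median turned to 0.02 for the peroxins, 0.03 for mitochondrial oxidation and 0.03 for all members. The median SD of a member over the arrays was 0.48, against 0.45 for all tested genes.

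**Figure D2:**
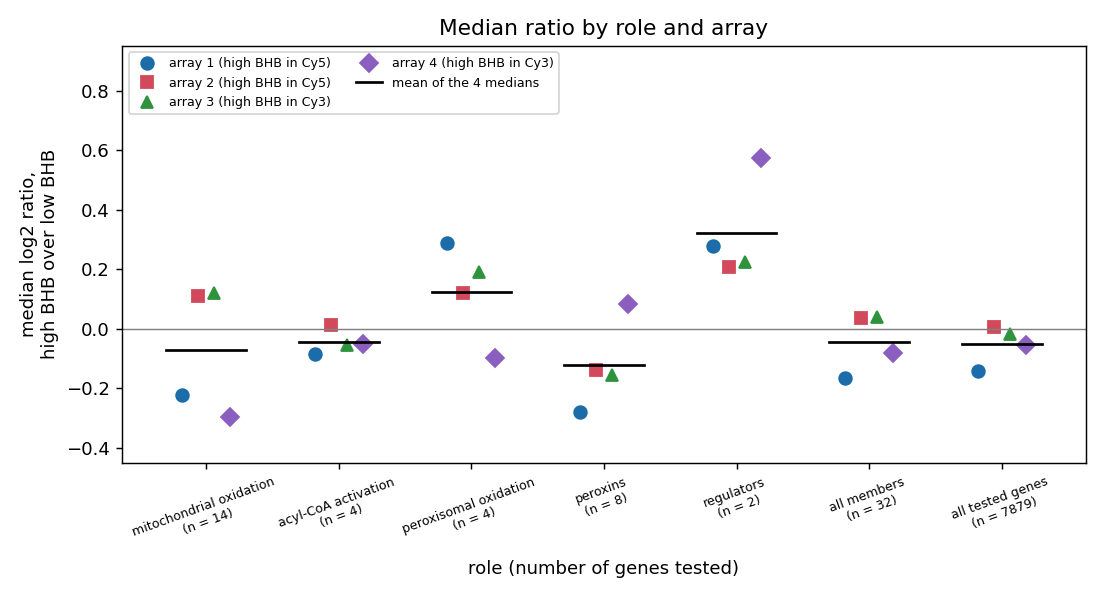
Median log2 ratio of high over low BHB (vertical axis) in each role on each array, beside all members and all 7879 tested genes, with bars at the mean of the 4 medians. Mitochondrial oxidation lies below 0 on arrays 1 and 4 and above 0 on arrays 2 and 3. The median of the 2 regulators lies above 0 on each array, although PPARGC1A itself was at -0.37 on array 2.

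In the entry step of mitochondrial oxidation, CPT1A and CPT1B had the highest mean ratios of their role, while CPT2 was near 0. CPT1A, the carnitine palmitoyltransferase of the outer membrane that predominates in liver, had intensities of 353, 289, 449 and 304 units in high BHB embryos on arrays 1 to 4, against 233, 302, 349.9 and 198 in low BHB embryos. High BHB was the brighter channel on 3 of 4 arrays and the groups overlap, with log2 ratios of 0.60, -0.06, 0.36 and 0.62 (0.38 ± 0.32, adjusted p = 0.395). CPT1B, the muscle form of the same enzyme, had 302, 202, 147 and 209.6 units in high BHB embryos, against 193, 219, 148 and 163 in low BHB embryos. The levels of CPT1B lie near background. It was above background on 3 arrays in high BHB and on 2 in low BHB, and so was tested because of its level in high BHB. The CPT1B groups overlap (0.22 ± 0.35, adjusted p = 0.646, mean 0.079 without array 1). CPT2, which reforms acyl-CoA on the inner side of the membrane, averaged -0.02 ± 0.73, with ratios above 0 on arrays 2 and 3 and below 0 on arrays 1 and 4.

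The acyl-CoA dehydrogenases take the first hydrogens from the chain. ACADM, the medium-chain enzyme, had 336.5, 1022, 1065 and 673 units in high BHB embryos, against 1135, 824, 853 and 1041 in low BHB embryos. Its high BHB channel was dim on array 1 alone to this degree, with ratios of -1.75, 0.31, 0.32 and -0.63 (-0.44 ± 0.98, adjusted p = 0.543). Without array 1 the ACADM mean was 0.00064. A dimmer ACADM probe averaged -0.50 ± 0.52 and was below 0 on arrays 1, 3 and 4, so its sign does not rest on array 1 alone. ACADS, the short-chain enzyme, averaged -0.29 ± 0.78 and ACADL, the long-chain enzyme, -0.38 ± 0.67. Each was above background in high BHB on 1 array and in low BHB on 3, and so was tested because of its level in low BHB. Without array 1 the ACADS mean was 0.067, and the ACADL mean ran between -0.64 without array 1 and -0.16 without array 3. The very-long-chain enzyme ACADVL was not above background on any array in either group.

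The later steps of the spiral showed no common direction. HADHB, the thiolase subunit of the mitochondrial trifunctional protein, had 481, 1484, 384 and 518.5 units in high BHB embryos, against 536, 1179, 592 and 1221 in low BHB embryos. The groups overlap, and the HADHB ratios of -0.16, 0.33, -0.62 and -1.24 gave -0.42 ± 0.67 (adjusted p = 0.458). Without array 4 the HADHB mean was -0.15. HADHB averaged 0.09 on arrays 1 and 2 and -0.93 on arrays 3 and 4, the opposite dye orientation. Its partner subunit HADHA had no probe in the annotation used here. HADH, the short-chain hydroxyacyl-CoA dehydrogenase, averaged 0.11 ± 0.46, and ACAA2, the mitochondrial thiolase, 0.11 ± 0.56. The hydratase ECHS1 averaged 0.02 ± 0.51, and ECI2, an isomerase needed for unsaturated chains, 0.05 ± 0.22.

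Electrons from the dehydrogenases pass through the electron transfer flavoprotein, made of ETFA and ETFB, to its oxidoreductase ETFDH and on to ubiquinone. ETFDH was the 1 gene of the mitochondrial role with the same sign on all 4 arrays. It had 424, 334, 234 and 242 units in high BHB embryos, against 518, 394, 296 and 399 in low BHB embryos. On each array high BHB was the dimmer channel, but the groups overlap across arrays, and the ratios of -0.29, -0.24, -0.34 and -0.72 gave -0.40 ± 0.22 (adjusted p = 0.363). ETFA averaged -0.29 ± 0.47. The brightest of 4 ETFB probes averaged -0.06 ± 0.49, and the others -0.22, -0.21 and -0.05.

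Of the acyl-CoA synthetases, ACSL3 and ACSL4 had mean ratios near 0 on their brightest probes. ACSL4, which prefers arachidonic acid and similar polyunsaturated acids, had 4077, 2752, 1779 and 2675 units in high BHB embryos, against 3405, 2701, 1827 and 3015 in low BHB embryos (0.02 ± 0.18, adjusted p = 0.972). ACSL3, a synthetase of the endoplasmic reticulum and lipid droplets, had 2093, 2361, 1739 and 2364 units in high BHB embryos, against 2716, 2064, 1823 and 2315 in low BHB embryos (-0.05 ± 0.24, adjusted p = 0.919). For each of these genes the groups overlap, and the sign of the ratio differed between arrays. The 2 dimmer ACSL3 probes averaged -0.60 ± 0.31, below 0 on all 4 arrays (adjusted p = 0.285), and -0.53 ± 0.51, below 0 on 3 (adjusted p = 0.335). These ACSL3 probes thus differ in size from the brightest one, which was not below 0 on arrays 2 and 4.

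ACSL1, the main synthetase of fat and muscle, had 304, 348, 182 and 251 units in high BHB embryos, against 263, 349, 347 and 274 in low BHB embryos. Only array 3 shows a wide gap (-0.93), the other arrays gave 0.21, -0.003 and -0.13, and the mean was -0.21 ± 0.50 (adjusted p = 0.689). ACSL6, a synthetase known from brain, had 308, 276.5, 848 and 1165 units in high BHB embryos, against 639, 416.5, 831.5 and 1133 in low BHB embryos. High BHB was the dimmer ACSL6 channel on arrays 1 and 2 (-1.05 and -0.59), while arrays 3 and 4 gave 0.03 and 0.04 (-0.39 ± 0.53, adjusted p = 0.443). Without array 1 the ACSL6 mean was -0.17. ACSL5 was above background on 2 arrays in each group, 1 short of the requirement.

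In peroxisomal oxidation the gene with the widest separation was SCP2, whose products are sterol carrier protein 2 and a thiolase for branched chains. The brightest SCP2 probe had 16980, 9266, 9167 and 11030 units in high BHB embryos, against 7533, 8977, 7775 and 6396 in low BHB embryos. Every high BHB value lies above every low BHB value, which held for 1 member and for 1.28% of all tested genes. The ratios were 1.17, 0.05, 0.24 and 0.79 (0.56 ± 0.51, 1.47-fold, adjusted p = 0.326). SCP2 kept an unadjusted p under 0.05 without array 2 or array 3 and lost it without array 1 or array 4. It was also lost with the deposited ratios, loess on the tested probes, a dye term, no background correction or median centring. The same held with channels unpaired or with the tested probes of SCP2 averaged. The SCP2 mean was 0.36 without array 1 and 0.24 with median centring.

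The 3 dimmer tested SCP2 probes have the opposite sign. The brightest of them had 233, 629, 694 and 371 units in high BHB embryos, against 697, 1097, 1280 and 866 in low BHB embryos. High BHB was the dimmer channel on each array, with ratios of -1.58, -0.80, -0.88 and -1.22 (-1.12 ± 0.36, adjusted p = 0.204). The other SCP2 probes averaged -0.41 ± 0.24, above background on 1 array in high BHB and on 4 in low BHB, and -0.39 ± 0.26, above background on 3 and 4. Each of these 3 probes was below 0 on all 4 arrays. With the 4 probes averaged the SCP2 mean was -0.34, so its direction depends on the probe. Probe sequences were not used here, and which transcript each probe detects was not tested.

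**Figure D3:**
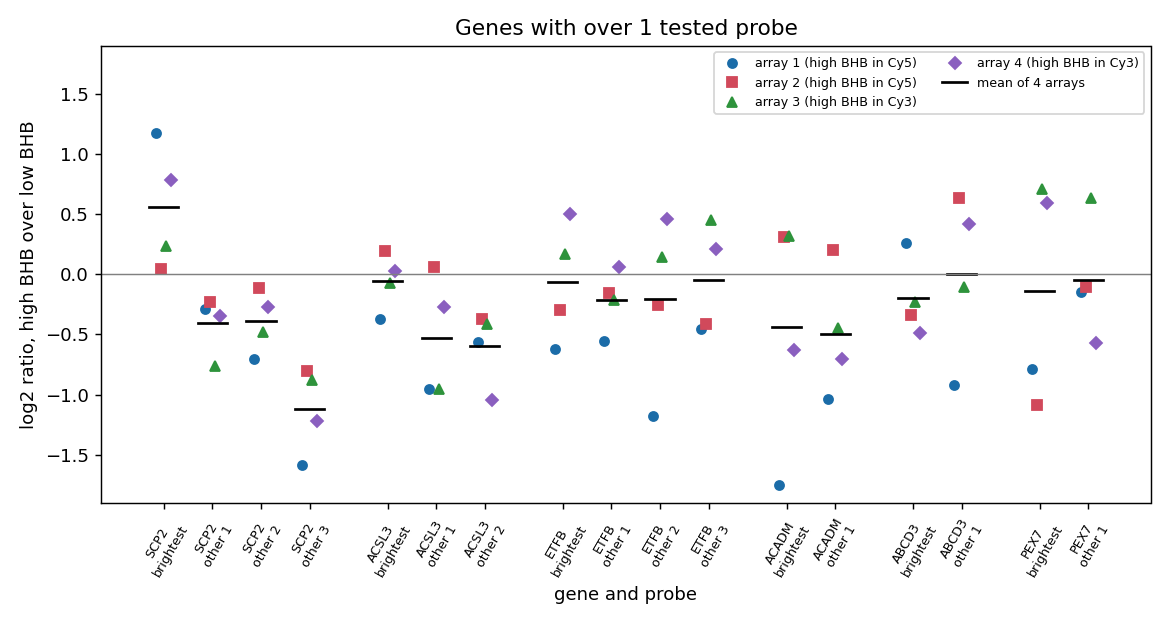
Log2 ratios of high over low BHB (vertical axis) for the 6 members with over 1 tested probe, brightest probe first, with 1 point per array and a bar at the mean of 4 arrays. The brightest SCP2 probe lies above 0 on each array, and the 3 others lie below 0 on each.

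HSD17B4, the bifunctional hydratase and dehydrogenase of peroxisomes, had 680.2, 603, 473 and 346.5 units in high BHB embryos, against 546, 460.0, 428 and 341 in low BHB embryos. High BHB was the brighter HSD17B4 channel on each array by a small margin, and the groups overlap (0.32, 0.39, 0.14 and 0.02, mean 0.22 ± 0.17, adjusted p = 0.614). With median centring the HSD17B4 mean was -0.06. ACAA1, the peroxisomal thiolase, had 148, 502.5, 403 and 408 units in high BHB embryos, against 176, 438, 279.5 and 476 in low BHB embryos (0.06 ± 0.37, adjusted p = 0.913). ABCD3, a transporter of acyl chains in the peroxisomal membrane, had 1456, 1078, 1483 and 436 units in high BHB embryos, against 1215, 1360, 1743 and 612 in low BHB embryos (-0.20 ± 0.32, adjusted p = 0.674). ACAA1 and ABCD3 overlap between groups, with 2 and 1 arrays above 0. A dimmer ABCD3 probe averaged 0.006 ± 0.69. The oxidase ACOX3 and the bifunctional enzyme EHHADH were above background on at most 2 arrays and were not tested.

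Among the peroxins, PEX2 had the lowest ratio of any member. PEX2 is a membrane ubiquitin ligase that acts with PEX10 on the import receptor PEX5. It had 616, 304, 394 and 189 units in high BHB embryos, against 755, 486, 502 and 521 in low BHB embryos. High BHB was the dimmer PEX2 channel on each array, although the highest high BHB value exceeds 3 of the low BHB values. The ratios were -0.29, -0.68, -0.35 and -1.47, giving -0.70 ± 0.54, or 0.617-fold (adjusted p = 0.285). Array 4 weighs on this mean, which was -0.44 without it. The unadjusted p of PEX2 was no longer under 0.05 without array 4, without array 2 or with channels unpaired. PEX10 was not above background on any array.

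PEX5, the receptor that recognises most peroxisomal enzymes in the cytosol, had 9136, 3473, 2837 and 2358 units in high BHB embryos, against 1790, 2886, 4663 and 1838 in low BHB embryos. Array 1 is far above the others, with ratios of 2.35, 0.27, -0.72 and 0.36 (0.57 ± 1.29, adjusted p = 0.518), and without array 1 the PEX5 mean was -0.03. PEX13, part of the docking complex to which PEX5 binds, had 190.2, 213, 258 and 240.5 units in high BHB embryos, against 236, 212, 176 and 185.5 in low BHB embryos (0.15 ± 0.38, adjusted p = 0.764, mean 0.022 without array 3). PEX13 was above background on 3 arrays in high BHB and on 2 in low BHB, and so was tested because of its level in high BHB. Its docking partner PEX14 was above background on at most 1.

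PEX6, an ATPase that draws PEX5 back out of the membrane, was near background in both groups. It had 186, 172, 135 and 171 units in high BHB embryos, against 210.2, 209, 218 and 207.5 in low BHB embryos. The groups do not overlap, with every high BHB value below every low BHB value, which held for 1 member and for 2.39% of all tested genes. PEX6 was not above background on any array in high BHB, and on 3 in low BHB, so this separation rests on values at background and no fold is given. The measured ratios were -0.17, -0.28, -0.69 and -0.28 (-0.36 ± 0.23, adjusted p = 0.403), with a mean of -0.14 without background correction. PEX26, which anchors PEX6 at the membrane, averaged -0.08 ± 0.73.

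The receptor PEX7, which imports a smaller group of peroxisomal enzymes including ACAA1, averaged -0.14 ± 0.93, and a dimmer PEX7 probe -0.05 ± 0.50. PEX16 and PEX19 insert membrane proteins into peroxisomes, and they averaged -0.14 ± 0.64 and 0.07 ± 0.44. Their partner PEX3 was above background on 1 array in each group and was not tested.

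**Figure D4:**
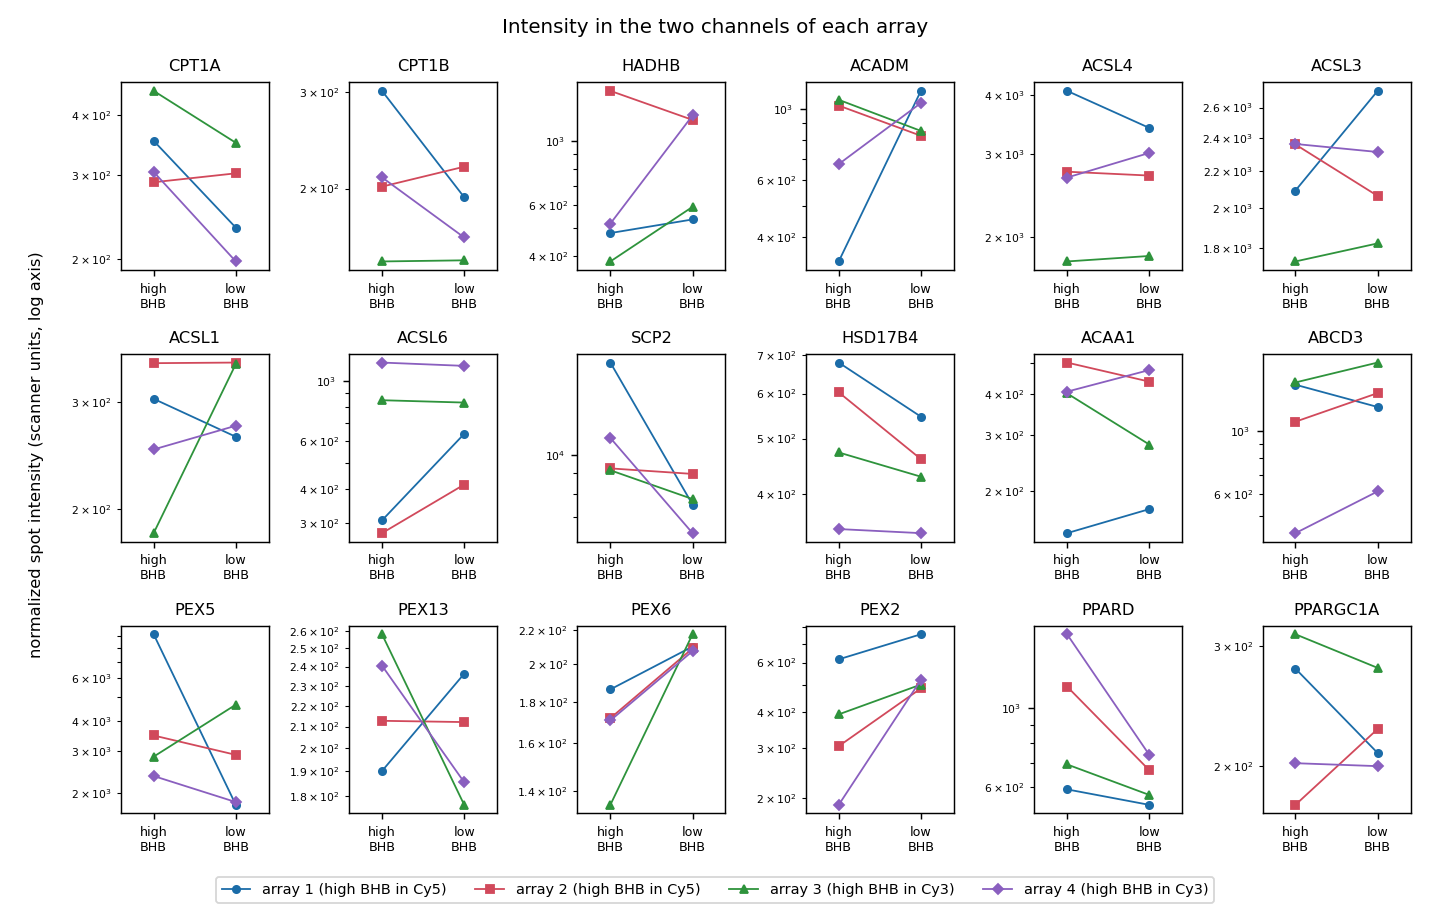
Normalized spot intensity (vertical log axis, scanner units) of the 18 members given by array, with high BHB left of low BHB and 1 line per array. On the brightest probes, SCP2 (high BHB above) and PEX6 (high BHB below, and at background there) are the genes whose high BHB and low BHB values do not overlap. In these directions the values do not overlap in 1.28% and 2.39% of all tested genes. The 4 lines of PPARD, HSD17B4 and PEX2 also each slope 1 way.

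Of the regulators, PPARD had the highest mean ratio of any member. PPARD encodes a nuclear receptor that binds fatty acids and raises transcription of oxidation genes. It had 590.1, 1153, 694 and 1621 units in high BHB embryos, against 533.5, 669, 569 and 739 in low BHB embryos. High BHB was the brighter PPARD channel on each array, by most on arrays 2 and 4, and the groups overlap. The ratios of 0.15, 0.79, 0.29 and 1.13 gave 0.59 ± 0.46, or 1.5-fold (adjusted p = 0.304). The unadjusted p of PPARD was no longer under 0.05 without array 2, without array 4, without background correction, with channels unpaired or with median centring. With median centring the PPARD mean was 0.28. PPARGC1A, a coactivator that drives mitochondrial gene expression, had 278, 175, 312 and 202 units in high BHB embryos, against 209, 226.5, 278.5 and 199.8 in low BHB embryos (0.05 ± 0.33, adjusted p = 0.924). PPARGC1A lies near background. It was above background on 2 arrays in high BHB and on 3 in low BHB, and so was tested because of its level in low BHB. PPARA, the related receptor that controls fatty acid oxidation in liver, was not above background on any array.

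The dye orientation moved with the sign of some members. ACSL4, ACSL6, ETFB, PEX7, PEX16 and PEX26 had 1 sign on arrays 1 and 2 and the other on arrays 3 and 4. They are 6 of 32 members (18.8%), against 8.66% of all tested genes. PEX7 averaged -0.94 on arrays 1 and 2 and 0.65 on arrays 3 and 4. PEX26 went the other way, at 0.54 and -0.69. No member and no other tested gene had an adjusted p under 0.05 for the dye term in limma. At an unadjusted p under 0.05 there were 2 of 32 members, PEX7 and PEX26, against 270 of 7879 tested genes. Means on arrays 1 and 2 and on arrays 3 and 4 were -0.49 and -0.91 for PEX2, 0.46 and 0.71 for PPARD, and 0.61 and 0.51 for the brightest SCP2 probe.

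A further 48 genes of the same pathways gave 25 tested genes, with 14 above 0 and 11 below. None was higher at an unadjusted p under 0.05 and 2 were lower, against 5.72% and 11.6% of all tested genes, and none passed the adjusted test. PECR, a peroxisomal enoyl-CoA reductase, had 841, 1328, 609 and 702 units in high BHB embryos, against 1101, 1597, 1096 and 2316 in low BHB embryos (-0.81 ± 0.66, adjusted p = 0.274). LONP2, a protease of the peroxisomal matrix, had 2465, 2544, 1870 and 2942 units in high BHB embryos, against 3956, 3300, 3235 and 3446 in low BHB embryos (-0.52 ± 0.26, adjusted p = 0.307). Each was dimmer in high BHB on all 4 arrays, and the LONP2 groups do not overlap, as in 2.39% of all tested genes. FAR1, which makes fatty alcohols for ether lipids, and CRAT, the carnitine acetyltransferase, were also below 0 on all 4 arrays, at -0.45 ± 0.32 and -0.35 ± 0.34. These 4 of 25 genes are near the 15.6% of all tested genes. The fatty acid transport protein SLC27A3 was above 0 on all 4, at 0.57 ± 0.61 (1 of 25, against 10.3%). Its high BHB and low BHB values do not overlap either, as in 1.28% of all tested genes in that direction. The gap is narrow, with a high BHB minimum of 9033 units and a low BHB maximum of 8983. The 5 tested genes of acyl-CoA activation in this group all had means above 0, with a median of 0.22. This compares with 1 of 4 among the synthetases above and 45.6% of all tested genes, and was not tested. Of these 5, SLC27A4 (0.02 ± 0.29) and SLC27A1 (0.16 ± 0.81) were above 0 on 2 of 4 arrays. SLC27A1 was above background on 3 arrays in high BHB and on 2 in low BHB, and so was tested because of its level in high BHB.

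Across the series, 33.4% to 40.5% of probes were above background in high BHB and 33.6% to 48.6% in low BHB, and the SD of the log2 ratios was widest on array 1 (0.83, against 0.44 to 0.61). Pairs of arrays correlated weakly across probes, at r of 0.10 to 0.38, where probes are not independent. Of the markers of the embryo's cell types, all 7 of trophectoderm and 5 of 6 of the inner cell mass were above background. Markers of the hypoblast were above background for 4 of 5 genes with a probe. All 4 had mean ratios above 0 (median 0.81), as did 45.6% of all tested genes. COL4A1 (1.04 to 1.22) and GATA4 (0.04 to 0.85) were above 0 on each array. The means of FN1 (-0.99, 1.75, 1.18 and -0.22) and HNF4A (0.09, 1.55, 2.65 and -0.03) rest on arrays 2 and 3. Summed hypoblast levels were 42339 to 71420 units in high BHB, against 20638 to 77676 in low BHB. Summed trophectoderm levels were 59775 to 110587 units in high BHB, against 84980 to 121255 in low BHB, and inner cell mass levels 7740 to 16465, against 7889 to 13633. The median ratio was -0.03 for trophectoderm (3 of 7 above 0) and -0.27 for the inner cell mass (1 of 5 above 0). The inner cell mass means were -0.87 for NANOG, -0.41 for SOX2, -0.27 for POU5F1, -0.05 for SALL4 and 0.17 for KLF4. The NANOG mean rests on array 4 (-3.38), since arrays 1 to 3 gave -0.42, 0.13 and 0.18. Of the cumulus markers 2 of 7 were above background, at summed levels of 641 to 927 units in high BHB, against 543 to 858 in low BHB. HAS2, PTX3, CYP19A1, GREM1 and AMH were not. PTPRC was the 1 of 5 leukocyte markers above background, and ZP3 the 1 of 4 oocyte markers with a probe. The part of cell composition in the ratios of the members was not tested.

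**Figure D5:**
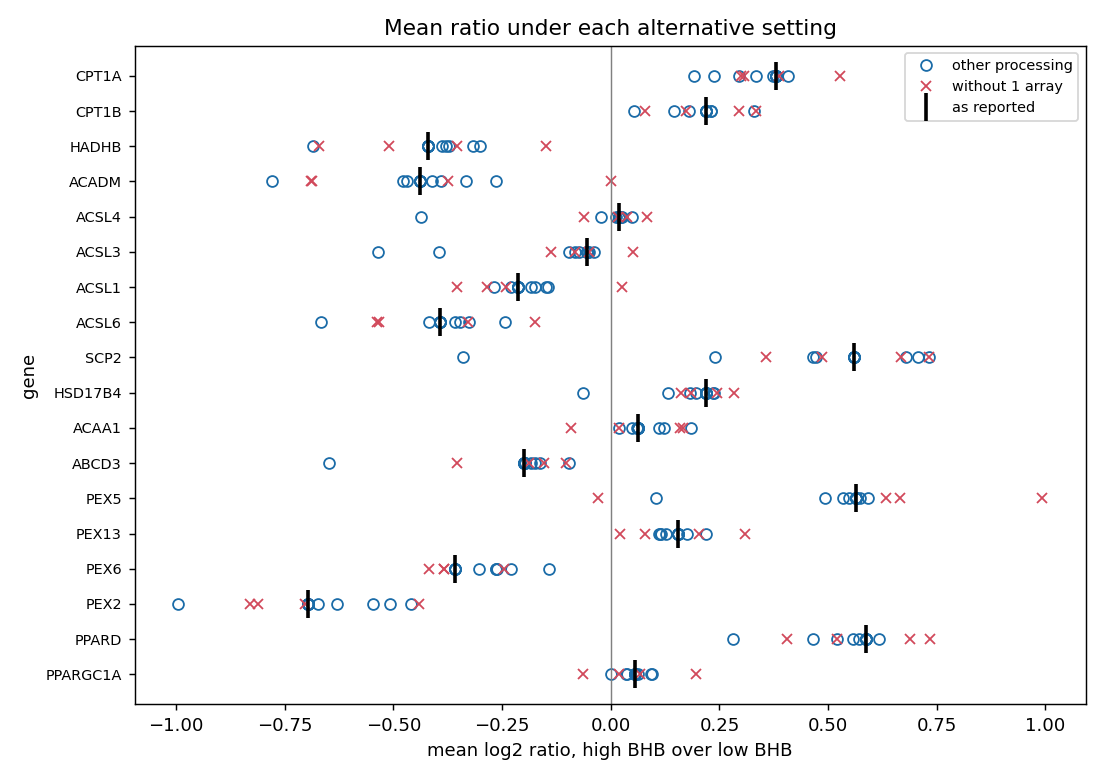
Mean log2 ratio of high over low BHB (horizontal axis) of the 18 members given by array, as reported (bars), under other processing (circles) and without 1 array (crosses). PEX2 stays below 0 and PPARD above 0 throughout, SCP2 turns to -0.34 when its probes are averaged, and PEX5 turns to -0.03 without array 1.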

How the data were processed

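Total RNA was amplified, labelled and hybridised on 4 dual-colour arrays, per the labels' protocols. Per the file headers, the scanner output deposited by the authors gives spot and local background intensity at 635 nm (Cy5) and 532 nm (Cy3), not normalized. A table of log2 ratios was deposited too, and limma is the tool listed in the submitters' processing notes. Turned to high over low BHB, those correlated at r of 0.967 to 0.992 with the ratios used here, and their array medians were 0.00096 to 0.017. Another deposited table has 4 columns that were not matched to a sample and not used. The scanner software and probe sequences are not given in the sources used here.

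Median intensities were corrected with normexp (offset 50), fitted without the 95 to 114 spots per array that the scanner had set aside, and normalized with loess (span 0.3, control spots at weight 0) in limma 3.58.1 under R 4.3.3. Per-channel intensities were taken after Aquantile. Channels of 1 gene can be compared with each other, but not levels of different probes. A probe was tested where its raw foreground exceeded the median plus 2 scaled median absolute deviations of the 153 negative control spots in 1 group on at least 3 of 4 arrays (16575 of 43794 probes). Gene names came from the platform annotation, which names 21790 probes, of which 20045 matched a current RefSeq symbol (ARS-UCD2.0, names only), 1524 a synonym and 221 neither. The brightest tested probe stood for a gene. The mean ratio was tested against 0 with lmFit and eBayes, with Benjamini-Hochberg adjustment over all tested probes. The fit was tested on simulated data. The number of arrays limits precision. The arrays lie on 1 slide, so no slide batch could be tested.

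Members and lists were chosen with earlier results of these data known. All tested members are named. Array values are given for the 2 highest and 2 lowest means of roles with over 4 tested members, for all tested members of smaller roles, and for members with 1 direction at an unadjusted p under 0.05. ETFDH, PECR and LONP2 and the dimmer probes of SCP2 are given by array outside this rule, after their values were seen. The other processing settings cover background correction, normalization, filters, probes of a gene, dye, pairing, the reading of the titles and single arrays left out. ACAD9 and HADHA had no probe in the annotation used here. CPT1C, ACADVL, ECI1, DECR1, ACSL5, ACOX3, EHHADH, PEX3, PEX10, PEX14 and PPARA had a probe but were not tested.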

Additional observations from a re-analysis of the deposited data

Results flagged for a closer look

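Among the 32 tested members, 1 had an array far from the others by the size of its gap against the whole range, and such a gap arises by chance in about 1 of 20 groups. The hydratase ECHS1 had a log2 ratio of high over low BHB of -0.747 on array 1, against 0.30, 0.35 and 0.17 on arrays 2 to 4. Its intensities were 7199, 17730, 9756 and 17610 units in high BHB embryos, against 12080, 14430, 7674 and 15630 in low BHB embryos. Without array 1 the ECHS1 mean was 0.27, against 0.02 with it. For all members, array 1 held the largest ratio in size for 13 of 32 (40.6%), against 42.5% of all tested genes.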

How the results depend on the processing

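Across 17 alternatives, 12 of 32 members kept 1 sign and 20 did not. Some of these alternatives could not change a sign. The 3 filters, the dye term, unpaired channels and averaging by title number left each tested member's mean as it was. Averaging probes did the same for genes with 1 tested probe. A member was tested under 15 to 17 of the alternatives. The 2 probes past an adjusted p of 0.05 became 0 with normexp on all spots, 0 with median centring, 0 with channels unpaired (no replicate block), 1 with local background subtracted, no background correction, no filter or a dye term, 3 with the stricter filter, and 0 to 2 without 1 array. They became 1531 of 16575 when arrays of 1 title number were averaged, which leaves 2 values per probe. PEX2, the 1 of 32 members that then passed, had an adjusted p of 0.0389 (limma), against 0.0958 to 0.781 under the others. The 3 members at an unadjusted p under 0.05 became 1 without background correction, 0 with channels unpaired, and 0 (without array 4) to 4 (without array 3) without 1 array. They became 5 with median centring (ABCD3, ACSL6, ETFDH, HADHB and PEX2, all lower), where the ratios of all tested genes also shifted down. The shares of all tested genes under these settings are not given here, so these counts are not read as results about the members. With median centring the medians were -0.32 for mitochondrial oxidation, -0.49 for activation and -0.29 for all members, against -0.23 for all tested genes. The activation median was -0.018 with the stricter filter, -0.055 with no filter, -0.30 with probes averaged, and -0.21 to -0.013 without 1 array. The regulators' median was 0.59 with the stricter filter, where PPARD alone remained. With median centring the means turned to -0.44 for ACSL4, -0.063 for HSD17B4, -0.26 for HADH, -0.33 for ECHS1, -0.21 for ACAA2 and -0.22 for PEX19. With the deposited ratios they turned to -0.021 for ACSL4 and -0.045 for ECHS1, with loess on the tested probes to -0.049 for ECHS1, and with probes averaged to -0.34 for SCP2. Means that turned without 1 array ran over -0.69 to 0.00064 for ACADM, -0.14 to 0.052 for ACSL3, -0.061 to 0.083 for ACSL4, -0.030 to 0.99 for PEX5, -0.064 to 0.20 for PPARGC1A, -0.35 to 0.025 for ACSL1, -0.092 to 0.17 for ACAA1, -0.13 to 0.26 for ACAA2, -0.53 to 0.067 for ACADS, -0.30 to 0.20 for CPT2, -0.093 to 0.27 for ECHS1, -0.019 to 0.15 for ECI2, -0.25 to 0.12 for ETFB, -0.045 to 0.31 for HADH, -0.41 to 0.081 for PEX16, -0.14 to 0.18 for PEX19, -0.34 to 0.16 for PEX26 and -0.42 to 0.17 for PEX7. With 1 sign kept, array 1, 2, 3 or 4 left out moved the means over -0.35 to -0.10 for ABCD3 and -0.47 to -0.10 for ETFA. The causes were not tested. By title number arrays 1 and 3, and 2 and 4, could be the same RNA. Arrays 1 and 3 correlated at r = 0.0987 and arrays 2 and 4 at 0.185, against 0.184 to 0.375 for the other pairs. Dim probes such as CPT1B, PEX6 and PEX13 are limited by background.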
